A study of Mus musculus with 12 samples.

Results

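Secreted Wnt antagonists are proteins that stromal cells release into the space around them and that lower the Wnt signal received by neighbouring cells. Their genes were described here across 4 groups of sorted stromal cells of the mouse gut. The set holds 7 genes chosen by family name, of 32052 genes in the deposited tables: the secreted frizzled-related proteins Sfrp1, Sfrp2, Sfrp4 and Frzb (also called Sfrp3), the Dickkopf genes Dkk2 and Dkk3, and Wnt inhibitory factor 1, Wif1. All 7 passed the filter on low counts, which kept 16757 genes.

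The libraries came from total RNA of EPCAM-negative, CD45-negative cells, sorted again by a GFP reporter of the R-spondin gene Rspo3 (the labels call it an Rspo3-GFP transgene). There were 3 libraries in each of colon GFP-positive, colon GFP-negative, small intestinal GFP-positive and small intestinal GFP-negative cells. All animals were C57Bl6 and between 8 and 12 weeks old, and every group, negative ones included, was taken from mice described by the same reporter. The labels do not say whether the 3 libraries of a group came from separate animals or from pools, so p-values measure the spread between these libraries, which may be technical. Cells sorted on CD31, named in the design of the study, were not analysed here.

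Wnt proteins bind Frizzled receptors together with the co-receptors LRP5 and LRP6. Secreted frizzled-related proteins carry a Frizzled-like domain and bind Wnt proteins, and WIF1 binds them through a domain of its own, so both act on the ligand. DKK2 binds LRP5 and LRP6 and acts on the co-receptor, while DKK3 is a divergent family member whose action on Wnt signalling is disputed. In the gut, stromal cells below and around the crypts supply Wnt ligands, R-spondins and these antagonists to the epithelium. R-spondins raise Wnt signalling by keeping Frizzled receptors on the cell surface, so the reporter used for sorting marks a source of an opposite signal.

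Upstream sequences were available for 4 of the 7 genes (Sfrp2, Frzb, Dkk2 and Wif1), from RefSeq on GRCm38.p6. The 3 printed here belong to genes with the widest differences between the groups described here, with 250 bases before the RefSeq start, 5′ to 3′ on the strand of the gene. Gene positions given further on are from GENCODE M21, whose Wif1 starts earlier, so that the last 44 bases of the Wif1 window lie inside that gene, as do 229 bases of the unprinted Frzb window. Sfrp2 lies at chr3:83766071-83766320 on the plus strand, Wif1 at chr10:121033754-121034003 on the plus strand and Dkk2 at chr3:132085042-132085291 on the plus strand. Capitals mark exact matches on either strand to any of 5 motifs. The TATA box was searched as TATAAA, a start-site element of many regulated genes. The GC box, bound by SP factors, was searched as GGGCGG, and the CCAAT box by its own letters. The core bound by TCF/LEF factors, which answer Wnt signals, was searched as CTTTGAT. The site of GLI factors, which answer hedgehog signals, was searched as TGGGTGGTC.
Sfrp2: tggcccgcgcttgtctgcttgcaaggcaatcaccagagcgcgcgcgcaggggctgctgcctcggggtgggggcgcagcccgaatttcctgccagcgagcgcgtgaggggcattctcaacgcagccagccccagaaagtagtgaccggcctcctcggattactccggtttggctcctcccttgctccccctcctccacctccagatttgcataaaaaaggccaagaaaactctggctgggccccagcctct
Wif1: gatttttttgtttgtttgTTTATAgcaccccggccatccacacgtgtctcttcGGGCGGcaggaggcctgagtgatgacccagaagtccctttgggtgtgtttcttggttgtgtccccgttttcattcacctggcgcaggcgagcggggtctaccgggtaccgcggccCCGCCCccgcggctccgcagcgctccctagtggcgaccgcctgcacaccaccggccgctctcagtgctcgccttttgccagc
Dkk2: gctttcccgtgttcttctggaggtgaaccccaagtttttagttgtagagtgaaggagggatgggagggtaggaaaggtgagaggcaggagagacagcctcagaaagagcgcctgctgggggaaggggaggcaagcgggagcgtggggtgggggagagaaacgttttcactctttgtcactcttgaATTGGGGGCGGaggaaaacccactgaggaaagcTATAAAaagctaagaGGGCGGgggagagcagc
The Dkk2 window held a TATA box whose first base lay 32 bases before the start, GC boxes at 60 and 17 bases and a CCAAT box on the opposite strand at 65 bases, directly beside the first GC box. The Wif1 window held GC boxes at 197 and 82 bases and a TATA match at 232 bases. The Sfrp2 window held none of the 5 motifs, and the Frzb window only a GC box at 51 bases. None of the 4 windows held the TCF/LEF or the GLI letters. Among all 32851 windows of this length, 12.4% held a TATA match, 32.7% a GC box, 33.8% a CCAAT box, 3.21% the TCF/LEF core and 0.225% the GLI letters. The 4 windows were 63.6% (Sfrp2), 64.4% (Frzb), 55.6% (Dkk2) and 62.8% (Wif1) G and C, against a median of 52.4% over all windows.

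The libraries held 6489835 to 12286054 counts, and 18933 to 23338 genes had a count. Rspo3, the sorted gene, was higher in GFP-positive cells by 5.11 in the colon and 4.40 in the small intestine on the log2 scale, which checks the labels. Markers of fibroblasts (13 genes) were high in every library, with summed levels from 11028 to 64024 CPM (counts at a common library size). Lymphatic endothelial markers (10 genes) summed to 18179 to 21281 CPM in colon GFP-positive libraries against 218 to 354 CPM in colon GFP-negative libraries, and to 4376 to 15241 CPM in small intestinal GFP-positive against 216 to 623 CPM in small intestinal GFP-negative libraries. A pair of small intestinal GFP-negative libraries stood apart. Replicate 2 held 28123 CPM of fibroblast markers, against 11028 and 12269 CPM in replicates 1 and 3. Replicate 3 held 9771 CPM of leukocyte markers, Ptprc (CD45) at 304 CPM among them, against at most 352 CPM in every other library. Results that change without either library are given both ways.

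Sfrp1 was the most abundant of the 7 genes in every library, and Dkk3 came second. The scale that allows genes to be compared is TPM, which divides by transcript length before scaling. Sfrp1 took 64.4 ± 2.20% of the TPM summed over the 7 genes in colon GFP-positive cells, 44.6 ± 3.07% in colon GFP-negative, 82.95 ± 1.06% in small intestinal GFP-positive and 73.2 ± 2.54% in small intestinal GFP-negative cells (mean ± SD, n = 3 each). Dkk3 took 27.7 ± 1.22% and 40.6 ± 2.51% in colon GFP-positive and GFP-negative cells, and 10.2 ± 1.46% and 20.2 ± 1.87% in small intestinal GFP-positive and GFP-negative cells. The other 5 genes were minor, and which of them led depended on the group. Sfrp4 led them in colon GFP-positive cells at 5.22 ± 1.95%, and Sfrp2 in colon GFP-negative cells at 7.06 ± 5.55%. Dkk2 led in small intestinal GFP-positive cells at 6.13 ± 0.796%. In small intestinal GFP-negative cells Frzb at 2.72 ± 0.779% and Dkk2 at 2.51 ± 1.496% lay within their spread of each other. The 7 genes summed to 15.7 ± 1.05 TPM in colon GFP-positive and 33.9 ± 4.38 TPM in colon GFP-negative cells, and to 49.4 ± 21.1 TPM in small intestinal GFP-positive and 25.1 ± 10.3 TPM in small intestinal GFP-negative cells. TPM values were low throughout because small noncoding genes took 90.6% to 94.2% of all TPM. In CPM the colon sums were 456 ± 37.2 in GFP-positive and 835 ± 46.5 in GFP-negative cells. The small intestinal sums were 1997 ± 638 CPM in GFP-positive and 1091 ± 595 CPM in GFP-negative cells. So the order of the GFP-negative groups of the tissues depended on the scale.

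**Figure D1:**
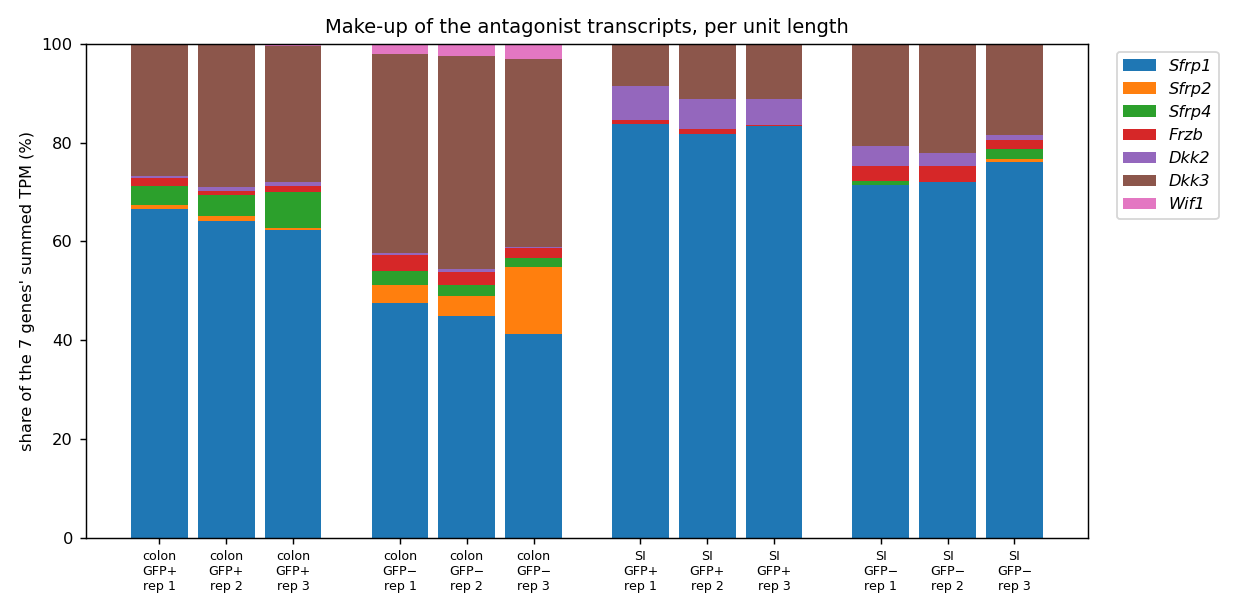
Share of each gene in the TPM summed over the 7 antagonist genes (y axis, percent, stacked to 100), for each of the 12 libraries (x axis, grouped by tissue and GFP state; SI, small intestine; rep, replicate). Sfrp1 (blue) and Dkk3 (brown) fill most of every bar, Dkk3 is widest in colon GFP-negative libraries at about 40.6%, and Dkk2 (purple) is widest in small intestinal GFP-positive libraries at about 6.13%.

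Between GFP-positive and GFP-negative cells of the colon, 3 of the 7 genes fell and none rose. These were Sfrp2, Dkk3 and Wif1. A call means an adjusted p under 0.05 in edgeR's quasi-likelihood test with Benjamini-Hochberg adjustment over all 16757 genes, a threshold passed by 8.69% of all genes in this comparison and by 4.06% as lower. The median log2 difference was -1.55 over the 7 genes and -0.03 over all genes tested. All 3 GFP-positive libraries lay below all 3 GFP-negative ones for 5 of the 7 genes, which held for 17.8% of all genes in this direction and 35.6% in either. In sorted bulk samples such as these, fewer cells of a type and less RNA per cell cannot be told apart.

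In the small intestine, 1 of the 7 genes rose in GFP-positive over GFP-negative cells, Dkk2, and none fell, where 10.9% of all genes were called and 4.24% as higher. The sorts did not overlap for 2 of the 7 genes, Dkk2 above and Frzb below, against 21.9% of all genes. The median log2 difference was -1.33 over the 7 genes and -0.03 over all genes. The GFP effects of the 2 tissues were also compared directly, as colon minus small intestine. None of the 7 genes passed in edgeR, where 2.06% of all genes did. An unadjusted p under 0.05 was reached by 4 of the 7 and by 14.5% of all genes, and DESeq2 called 1 (Sfrp1). So the calls in one tissue and not in the other do not show that the tissues differed.

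**Figure D2:**
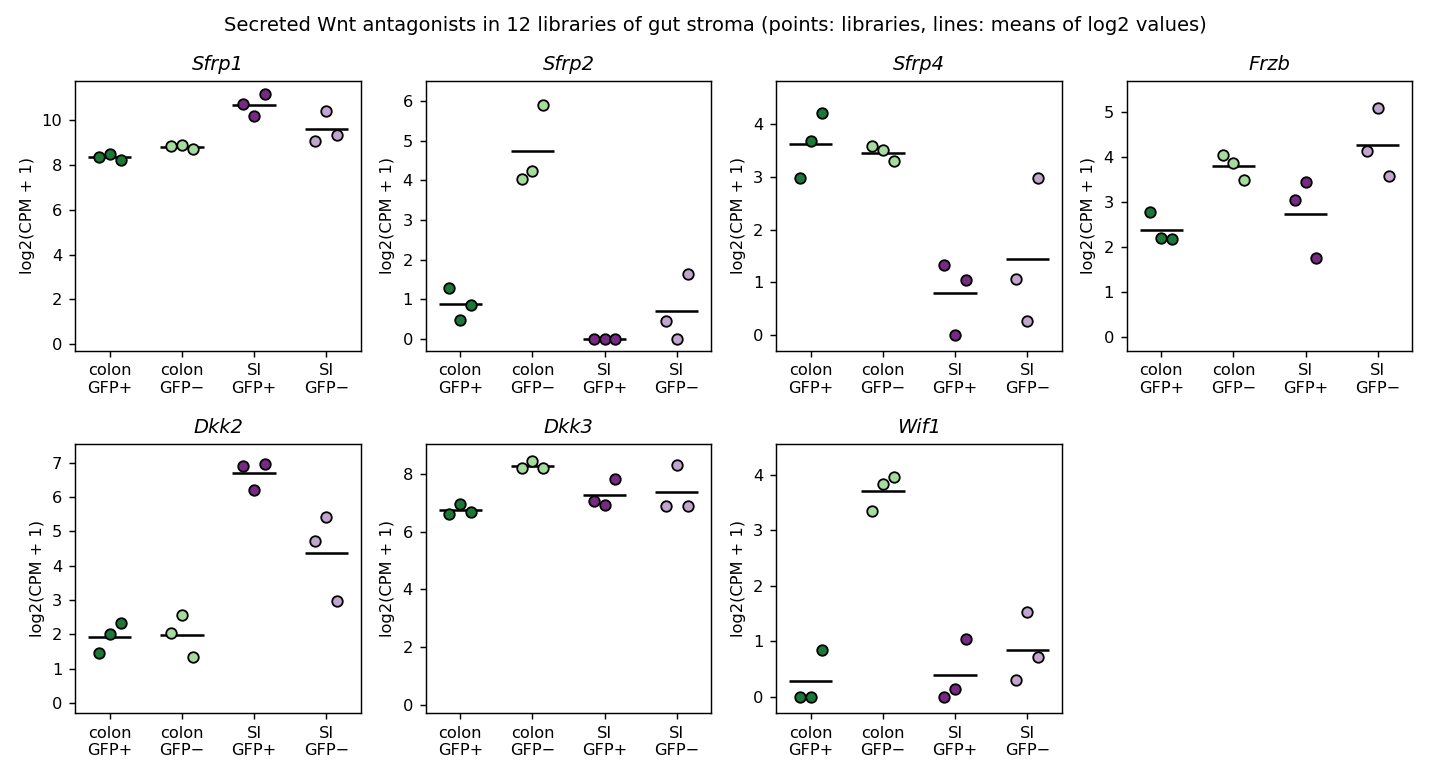
Level of each of the 7 antagonist genes as log2(CPM + 1) (y axis, own scale per gene) in the 12 libraries (points, replicates 1 to 3 from left to right; SI, small intestine), with the mean of the 3 log2 values of each group (line). Sfrp2 and Wif1 stand high in colon GFP-negative libraries, Dkk2 in small intestinal GFP-positive libraries, and Sfrp4 in both colon groups.

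Of the Wnt-binding proteins, Sfrp1 (ENSMUSG00000031548, chromosome 8, 23411502 to 23449632, plus strand of GRCm38) measured 325, 358 and 303 CPM in colon GFP-positive replicates 1 to 3 and 456, 480 and 425 CPM in colon GFP-negative replicates. Small intestinal values were 1725, 1162 and 2287 CPM in GFP-positive and 543, 1383 and 648 CPM in GFP-negative replicates. The colon GFP-positive libraries all lay below the negative ones, while in the small intestine the negative replicate 2 fell inside the range of the positive libraries. Neither GFP difference passed in the main edgeR fit, at -0.47 ± 0.33 in the colon (log2 ± SE, edgeR adjusted p = 0.513) and 1.007 ± 0.33 in the small intestine (edgeR adjusted p = 0.0756). The colon difference passed with only the libraries compared, and the small intestinal one in DESeq2 and with no filter on low counts. The difference between these effects was -1.47 ± 0.47 (edgeR adjusted p = 0.138). Without small intestinal GFP-negative replicate 2, the library rich in fibroblast markers, the small intestinal difference was 1.54 (edgeR adjusted p = 0.00232) and the difference of effects -2.01 (edgeR adjusted p = 0.00524), and both passed.

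Sfrp2 (ENSMUSG00000027996, chromosome 3, 83766321 to 83774316, plus strand), whose upstream window is printed above, was largely a gene of one group. It measured 1.43, 0.396 and 0.7999 CPM in colon GFP-positive replicates and 15.4, 17.9 and 58.9 CPM in colon GFP-negative replicates. The 3 small intestinal GFP-positive libraries had no Sfrp2 count, and the GFP-negative ones had 0.361, 0 and 2.09 CPM (3, 0 and 13 counts). In the colon every GFP-positive library lay below every negative one, and colon GFP-negative replicate 3 lay far above its fellows. The colon difference was -5.09 ± 1.09 on the log2 scale (edgeR adjusted p = 0.0188). The call ended without any 1 of the colon GFP-positive replicates (adjusted p = 0.0699, 0.104 and 0.0891 without replicates 1, 2 and 3) and without GFP-negative replicate 3 (adjusted p = 0.0820, difference -4.21), and with no filter on low counts (adjusted p = 0.103). In the small intestine the fitted difference did not pass (edgeR adjusted p = 0.108). Taking 3 counts in the group as the floor, the positive cells were at least 6.78-fold lower. That bound covers the counting error of the empty group only and takes the counts of the other group as exact. Of the 16 counts behind it, 13 came from the leukocyte-rich GFP-negative replicate 3, and without that library both groups lay at or under the floor, so that no bound is given (edgeR adjusted p = 0.367). Without small intestinal GFP-negative replicate 2 the difference passed (edgeR adjusted p = 0.0292). With every library it passed in DESeq2 (adjusted p = 0.0183). An annotated antisense gene, Gm26771, shares 224 exonic bases with Sfrp2 but had 2 counts over all 12 libraries. Sfrp2 was the only member whose exons overlapped another annotated gene.

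Frzb (ENSMUSG00000027004, chromosome 2, 80411970 to 80447625, minus strand) was lower in both positive sorts by nearly the same amount, though neither difference passed in the main edgeR fit. It measured 5.82, 3.57 and 3.54 CPM in colon GFP-positive and 15.4, 13.6 and 10.1 CPM in colon GFP-negative replicates. Small intestinal values were 7.24, 9.85 and 2.36 CPM in GFP-positive and 16.5, 32.9 and 10.9 CPM in GFP-negative replicates. The groups did not overlap in either tissue. The log2 difference was -1.59 ± 0.51 in the colon (edgeR adjusted p = 0.0797) and -1.63 ± 0.50 in the small intestine (edgeR adjusted p = 0.0574). In the small intestine, deviations of same-numbered sorts from their group means correlated at 0.32, 0.18 and 0.17. There the fit with the replicate as a block gave -1.69 (edgeR adjusted p = 0.0103), which passed. It also passed without the leukocyte-rich GFP-negative replicate 3 (-1.92, edgeR adjusted p = 0.0283). In the colon, where the deviations of the sorts did not pair by number but the labels give both sorts of replicates 2 and 3 a shared identifier, the replicate block gave -1.61 (edgeR adjusted p = 0.0132), which passed too. The colon difference passed in none of the 6 fits without a library. Of 7 other settings, 4 called Frzb in each tissue. Besides the replicate block, these were DESeq2 and no filter on low counts in both tissues. The last was a minimum count of 30 in the small intestine, and only the libraries compared in the colon.

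Sfrp4 (ENSMUSG00000021319, chromosome 13, 19623104 to 19632994, plus strand) did not separate by GFP. It measured 6.92, 11.9 and 17.7 CPM in colon GFP-positive and 11.001, 10.4 and 8.87 CPM in colon GFP-negative replicates, and 1.497, 0 and 1.06 CPM in small intestinal GFP-positive and 1.08, 0.209 and 6.91 CPM in small intestinal GFP-negative replicates. The positive and negative libraries overlapped in both tissues. The log2 difference was 0.27 ± 0.98 in the colon (edgeR adjusted p = 0.931) and -1.61 ± 1.098 in the small intestine (edgeR adjusted p = 0.429).

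Wif1 (ENSMUSG00000020218, chromosome 10, 121033960 to 121100650, plus strand) was found almost entirely in colon GFP-negative cells, where it measured 9.24, 13.2 and 14.6 CPM. Colon GFP-positive replicates had 0, 0 and 0.7999 CPM (0, 0 and 7 counts, against 63, 116 and 115 counts in the negative ones). Small intestinal GFP-positive replicates had 0, 0.0985 and 1.06 CPM, and GFP-negative replicates 0.240, 1.88 and 0.643 CPM. The colon sorts were far apart and the small intestinal ones overlapped near the limit of detection. The colon difference was -5.44 ± 1.41 on the log2 scale (edgeR adjusted p = 0.0307). The call ended without any 1 library other than colon GFP-positive replicate 3, the only one of its group with a Wif1 count (adjusted p = 0.110 and 0.123 without GFP-positive replicates 1 and 2, and 0.0664, 0.0889 and 0.0948 without GFP-negative replicates 1, 2 and 3). It also ended with no filter on low counts (adjusted p = 0.0657). The small intestinal difference was -1.33 ± 1.29 (edgeR adjusted p = 0.608).

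Of the Dickkopf genes, Dkk2 (ENSMUSG00000028031, chromosome 3, 132085292 to 132180304, plus strand), whose protein binds the co-receptors, measured 1.76, 3.04 and 3.9996 CPM in colon GFP-positive and 3.08, 4.91 and 1.52 CPM in colon GFP-negative replicates. Small intestinal values were 120, 72.9 and 123 CPM in GFP-positive and 25.2, 42.1 and 6.91 CPM in GFP-negative replicates. The small intestinal GFP-positive libraries all lay above the negative ones, and the colon sorts overlapped. It rose in small intestinal GFP-positive cells by 2.08 ± 0.56 on the log2 scale (edgeR adjusted p = 0.0350), while the colon difference was -0.12 ± 0.63 (edgeR adjusted p = 0.955). The call did not hold in every fit. With the replicate block, which allows for a pairing of same-numbered sorts, the difference was 2.32 (edgeR adjusted p = 0.0634). It also ended without any 1 of the GFP-positive replicates (adjusted p = 0.0931, 0.0526 and 0.0910 without replicates 1, 2 and 3) or without GFP-negative replicate 1 (adjusted p = 0.0985), with no filter on low counts (adjusted p = 0.129) and with only the libraries compared (adjusted p = 0.0807).

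Dkk3 (ENSMUSG00000030772, chromosome 7, 112116017 to 112159057, minus strand) measured 97.9, 122 and 101 CPM in colon GFP-positive and 293, 348 and 296 CPM in colon GFP-negative replicates. Small intestinal values were 132, 119 and 227 CPM in GFP-positive and 119, 316 and 117 CPM in GFP-negative replicates. The colon groups were well apart and tight, and the small intestinal groups overlapped, with replicate 2 of the negative group the highest of the 6. Dkk3 fell in colon GFP-positive cells by 1.55 ± 0.37 on the log2 scale (edgeR adjusted p = 0.0190). The difference passed in all 9 alternative fits that kept every library, and in 1 of the 6 fits without a library. Without GFP-positive replicates 1, 2 and 3 the adjusted p was 0.0908, 0.0615 and 0.0739, and without GFP-negative replicates 2 and 3 it was 0.0771 and 0.0553, with log2 differences between -1.65 and -1.45. The small intestinal difference was -0.21 ± 0.36 (edgeR adjusted p = 0.802). Without GFP-negative replicate 2 it was 0.45, and the difference of effects was then -1.99 (edgeR adjusted p = 0.00604), against -1.34 ± 0.51 with every library (edgeR adjusted p = 0.235).

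**Figure D3:**
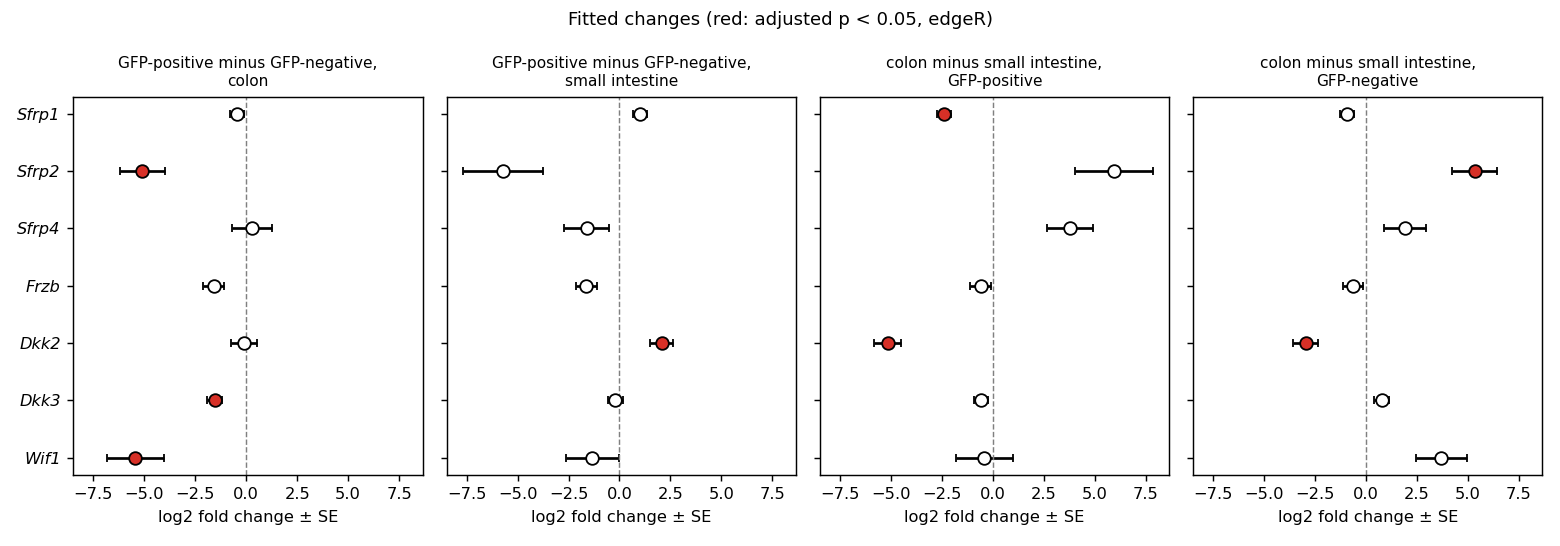
Fitted log2 fold change with its standard error (x axis) for the 7 antagonist genes (y axis) in 4 comparisons, with red points for an adjusted p under 0.05 in edgeR. Sfrp2, Dkk3 and Wif1 lie left of 0 in the colon sorts, Dkk2 lies right of 0 in the small intestinal sorts, and Sfrp1 and Dkk2 lie left of 0 in colon over small intestinal GFP-positive cells.

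Other cell types moved with the same sorts. Of all genes, 8.69% were called between the colon sorts and 10.9% between the small intestinal sorts. In the colon, telocyte markers (subepithelial stromal cells, 11 genes with Foxl1 among them) summed to 546 to 785 CPM in GFP-positive and 1898 to 2731 CPM in GFP-negative libraries, and 6 of the 10 tested were lower in GFP-positive cells. Foxl1 itself averaged 0.969 CPM in colon GFP-positive and 22.0 CPM in colon GFP-negative cells. Smooth muscle markers summed to 903 to 979 CPM in colon GFP-positive and 3639 to 4556 CPM in colon GFP-negative libraries, with 8 of 11 lower. Trophocyte markers (submucosal fibroblasts rich in Cd81 and Grem1, 11 genes) summed to 7481 to 7560 CPM in colon GFP-positive and 2230 to 2868 CPM in colon GFP-negative libraries, with 6 of 11 higher. In the small intestine the fibroblast markers summed to 42246 to 64024 CPM in GFP-positive and 11028 to 28123 CPM in GFP-negative libraries, with 9 of 13 higher, and the trophocyte markers to 9545 to 15470 CPM and 1511 to 2392 CPM, with 8 of 11 higher. Several lists moved the other way there. Smooth muscle markers summed to 1155 to 1302 CPM in small intestinal GFP-positive and 1759 to 4808 CPM in small intestinal GFP-negative libraries, with 7 of 11 lower. Blood endothelial markers summed to 338 to 1104 CPM in GFP-positive and 899 to 3283 CPM in GFP-negative libraries, with 7 of 11 lower and 1 higher. Epithelial markers summed to 14.0 to 22.0 CPM in GFP-positive and 326 to 1164 CPM in GFP-negative libraries, with 11 of the 13 tested lower. Glial markers summed to 112 to 206 CPM in GFP-positive and 546 to 957 CPM in GFP-negative libraries, with all 9 tested lower. None of the 10 telocyte markers tested passed in the small intestine. Npy, a telocyte marker, was at 0 throughout both colon sorts, and the epithelial Tff3 and Myo7b were at 0 throughout the small intestinal GFP-positive sort. The part of these cell types in the antagonist differences was not tested.

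Set against fibroblast RNA, a choice made after the values had been seen, Dkk3 was lower in colon GFP-positive than in colon GFP-negative cells. Per 1000 CPM of the 13 fibroblast markers it measured 3.53, 3.96 and 3.95 CPM in colon GFP-positive and 8.70, 9.34 and 8.60 CPM in colon GFP-negative replicates. The groups did not overlap and the ratio of means was 2.33-fold lower in GFP-positive cells (2-sided exact permutation p = 0.1, the smallest that 3 against 3 libraries allow). In the colon sorts 9.43% of all genes were lower without overlap on this scale, and so were Sfrp1, Sfrp2, Frzb and Wif1. For the small intestinal sorts the same scale placed 63.4% of all genes lower without overlap, so the members' values there are not read. The 13 markers include Pdpn and Vim, which endothelial cells also express. Of the markers, 2 were called higher and 2 lower in colon GFP-positive cells. The part of fibroblast content in the antagonist differences was not tested.

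Between the tissues, 2 of the 7 genes fell in colon relative to small intestinal GFP-positive cells, Sfrp1 and Dkk2, where 4.57% of all genes were called and 1.81% as lower. The libraries of the tissues did not overlap for 4 of the 7 genes, 2 in each direction, against 24.7% of all genes. Sfrp1 differed by -2.39 ± 0.35 on the log2 scale (edgeR adjusted p = 0.00219), which is 5.25-fold lower. Dkk2 differed by -5.16 ± 0.66 (edgeR adjusted p = 0.00172), which is 35.8-fold lower. Both calls held in each of the 6 fits that left out a library, with adjusted p between 0.00305 and 0.0151 for Sfrp1 and between 0.00392 and 0.0110 for Dkk2. Per 1000 CPM of fibroblast markers, Sfrp1 measured 11.7, 11.6 and 11.9 CPM in colon and 40.8, 25.5 and 35.7 CPM in small intestinal GFP-positive replicates, and Dkk2 measured 0.0634, 0.0986 and 0.157 CPM in colon and 2.83, 1.60 and 1.92 CPM in small intestinal GFP-positive replicates. Neither gene's groups overlapped on that scale, and 2.16% of all genes were lower in colon without overlap there. The ratios of means were 2.90-fold lower for Sfrp1 and 19.9-fold lower for Dkk2 in colon (exact permutation p = 0.1 each, the smallest possible).

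**Figure D4:**
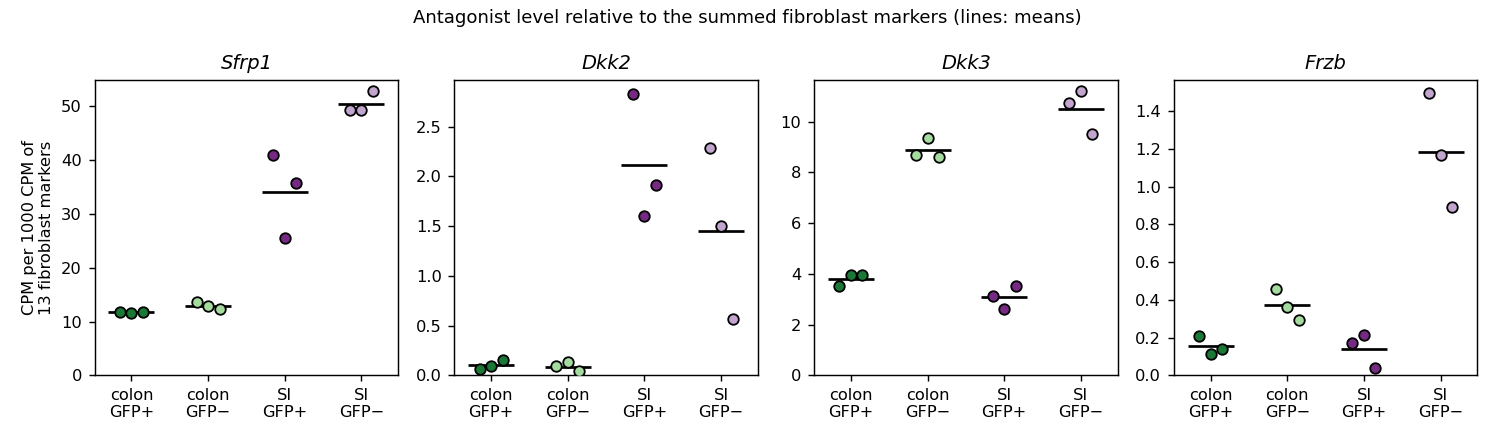
CPM of 4 antagonist genes per 1000 CPM of the 13 fibroblast markers (y axis, starting at 0) in the 12 libraries (points; SI, small intestine), with group means (lines). Sfrp1 and Dkk2 lie low in both colon groups, and Dkk3 measures 3.53 to 3.96 in colon GFP-positive libraries, below the 8.60 to 9.34 of colon GFP-negative libraries.

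The remaining members did not pass between the GFP-positive sorts in the main edgeR fit. Sfrp4 lay above in every colon library, at 3.801 ± 1.13 (edgeR adjusted p = 0.0936). It passed in DESeq2 and with only the libraries compared. Sfrp2 was absent from the small intestinal GFP-positive libraries (edgeR adjusted p = 0.145). With the same floor of 3 counts in the group, and the colon counts taken as exact, it was at least 9.24-fold higher in colon GFP-positive cells. It passed in DESeq2 (adjusted p = 0.0253). Differences of -0.59 ± 0.51 for Frzb, -0.58 ± 0.36 for Dkk3 and -0.40 ± 1.41 for Wif1 had adjusted p of 0.656, 0.491 and 0.938 in edgeR. Epithelial markers (14 genes), of the cell type that the EPCAM gate leaves out, summed to 353, 695 and 1950 CPM in colon GFP-positive replicates 1 to 3 against 14.0, 22.0 and 18.4 CPM in small intestinal GFP-positive replicates. The same markers summed to 2714, 1195 and 2479 CPM in colon GFP-negative replicates. The part of epithelial RNA in the Sfrp4 and Sfrp2 values was not tested.

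Between the GFP-negative sorts, Sfrp2 rose and Dkk2 fell in colon over small intestinal cells, where 4.21% of all genes were called, 2.2% as higher and 2.01% as lower. The libraries did not overlap for 5 of the 7 genes, against 22.6% of all genes. Sfrp2 differed by 5.33 ± 1.12 on the log2 scale (edgeR adjusted p = 0.0344) and Dkk2 by -2.96 ± 0.61 (edgeR adjusted p = 0.0245). Both calls ended without any 1 of the colon GFP-negative libraries (adjusted p = 0.0555, 0.0829 and 0.138 for Sfrp2 and 0.0850, 0.0531 and 0.111 for Dkk2, without replicates 1, 2 and 3) and without small intestinal GFP-negative replicate 1 (0.111 for Sfrp2 and 0.0610 for Dkk2). They also ended with no filter on low counts (0.125 for Sfrp2 and 0.0824 for Dkk2), with only the libraries compared (0.0804 and 0.0708) and in limma-voom (0.0521 and 0.101). Wif1 lay above in every colon library without passing in the main edgeR fit, at 3.70 ± 1.26 (edgeR adjusted p = 0.127). It passed in 3 of 7 other settings, namely DESeq2, limma-voom and only the libraries compared. Sfrp4 at 1.92 ± 1.04 (edgeR adjusted p = 0.373) passed only without the leukocyte-rich small intestinal replicate 3, at 3.97 (edgeR adjusted p = 0.0471). Dkk3 at 0.76 ± 0.36 (edgeR adjusted p = 0.287) passed, among the fits without a library, only without the fibroblast-rich replicate 2, at 1.42 (edgeR adjusted p = 0.00860). Sfrp1 at -0.92 ± 0.33 (edgeR adjusted p = 0.152) passed only in DESeq2, at an adjusted p of 0.0468. Frzb at -0.63 ± 0.49 had an edgeR adjusted p of 0.565.

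Ordered by mean level, Sfrp1 ran from small intestinal GFP-positive (1725 CPM) through small intestinal GFP-negative (858 CPM) and colon GFP-negative (454 CPM) to colon GFP-positive cells (328 CPM), and no neighbouring pair in that order passed the test. Dkk2 had the same order, and its upper steps passed: from small intestinal GFP-positive (105 CPM) to GFP-negative cells (24.8 CPM), and on to colon GFP-negative cells (3.17 CPM), while colon GFP-positive cells (2.93 CPM) overlapped with them. Sfrp2 and Wif1 were highest in colon GFP-negative cells (30.7 and 12.4 CPM) and averaged under 1 CPM in the other 3 groups, whose neighbours in order of level overlapped. Frzb averaged 4.31 and 6.49 CPM in the positive sorts of colon and small intestine, against 13.04 and 20.10 CPM in the negative ones. Sfrp4 averaged 12.2 and 10.1 CPM in colon GFP-positive and GFP-negative cells, against 0.854 and 2.73 CPM in the small intestinal ones. Within each of these pairs the libraries overlapped. Dkk3 ranged least, between 107 and 312 CPM.

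The members did not all share a pattern. As given above, Sfrp1 and Dkk2 had the same order of groups, and Sfrp2 and Wif1 the same highest group. Likeness was measured as the root mean square difference in log2 CPM over the 12 libraries, after each gene was centred on its own mean, so that 0 means the same profile. This distance counts the size of a gene's changes as well as their shape. By it, Frzb and Dkk3 were the closest pair at 0.933, and Sfrp2 and Dkk2 the most distant at 4.599. The root mean square of Dkk3 about its own mean was smaller, at 0.687, so 0.933 does not show a shared shape. Sfrp1 and Dkk2 lay at 1.38, with values about their own means of 0.958 and 2.22. Among 7119 other protein-coding genes whose mean log2 CPM reached 4, those nearest to Dkk3 were Mmp2 (a matrix protease, 0.151), Cacnb3 (a calcium channel subunit, 0.180) and Cxcl12 (a stromal chemokine, 0.225). Nearest to Sfrp1 were Htra3 (a secreted serine protease, 0.285), Egflam (pikachurin, a matrix protein, 0.332) and Apcdd1 (a membrane-bound Wnt antagonist, 0.352). Nearest to Dkk2 were Spock2 (a matrix proteoglycan, 0.596), Angptl4 (an inhibitor of lipoprotein lipase, 0.899) and Smoc2 (a matricellular protein, 0.921). Nearest to Wif1 were Bmp3, Bmp5 and Bmp7 (bone morphogenetic proteins, 0.681, 0.719 and 0.830), all of them on the telocyte marker list. Frzb lay nearest to Gpr161, Lmod1 and Nck2 (0.518 to 0.521), of which Lmod1 is on the smooth muscle list. Sfrp4 lay nearest to the desmosomal gene Dsg2, the hexokinase gene Hk2 and Fosl1 (0.977 to 1.18), and Sfrp2 to the adhesion gene Ceacam1, Edil3 and Hpse (1.45 to 1.56), which are loose matches. The 12 libraries share their sorts and tissues, so these distances are descriptions.

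**Figure D5:**
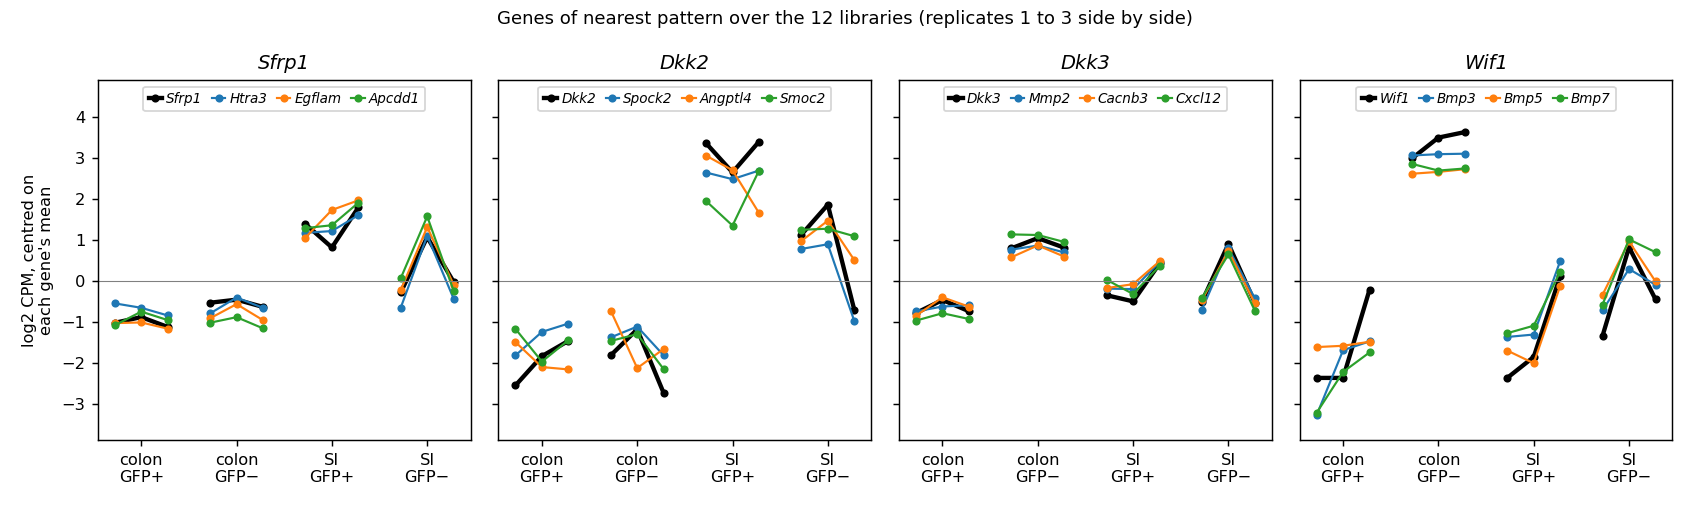
log2 CPM centred on each gene's mean over the 12 libraries (y axis) for 4 antagonist genes (black) and the 3 genes nearest to each (colours), with replicates 1 to 3 side by side in each group (x axis; SI, small intestine). Mmp2, at a distance of 0.151, runs with Dkk3 in every library, and Bmp3, Bmp5 and Bmp7 share the high colon GFP-negative level of Wif1.

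Other genes of the pathway were counted from lists of antagonists, ligands, receptors, R-spondins and targets. Of all genes, 8.69% were called between the colon sorts, 10.9% between the small intestinal sorts and 4.57% between the GFP-positive sorts. Of 8 other antagonists tested, 2 rose and 2 fell in small intestinal GFP-positive over GFP-negative cells, and 1 fell in the colon. Sostdc1, a secreted antagonist of Wnt and BMP, fell in both. It averaged 0.0366 CPM in colon GFP-positive and 2.35 CPM in colon GFP-negative cells (-5.47 ± 0.93, edgeR adjusted p = 0.00274), and 0.0394 CPM in small intestinal GFP-positive and 11.9 CPM in small intestinal GFP-negative cells (-7.95 ± 0.95, edgeR adjusted p = 4.13e-04). The other one that fell in the small intestine was Sfrp5, the remaining gene of the frizzled-related family, named after its values were seen, at 0.230 CPM in GFP-positive and 9.40 CPM in GFP-negative cells (edgeR adjusted p = 0.0313). Trabd2b (Tiki2, a membrane protease that inactivates Wnt proteins) rose by 2.07 ± 0.27 and Shisa3 (which retains Frizzled receptors inside the cell) by 2.49 ± 0.40 in small intestinal GFP-positive cells (edgeR adjusted p = 6.28e-04 and 0.00197). In colon relative to small intestinal GFP-positive cells 2 of the 8 fell, Shisa3 by 3.87 and Apcdd1 by 2.48, as Sfrp1 and Dkk2 did.

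Among 10 Wnt ligands tested, none rose and 3 fell in colon GFP-positive cells, where 8.69% of all genes were called. In small intestinal GFP-positive cells 5 rose and 1 fell, where 10.9% of all genes were called. Wnt4 fell by 4.03 ± 0.37 in the colon (edgeR adjusted p = 6.42e-05) and fell by 2.17 ± 0.34 in the small intestine (edgeR adjusted p = 0.00166). Wnt5a and Wnt5b, ligands best known for signalling without beta-catenin, fell in colon GFP-positive cells by 2.88 ± 0.26 and 2.81 ± 0.51 (edgeR adjusted p = 6.42e-05 and 0.00392), as the ligand-binding antagonists Sfrp2 and Wif1 did. Wnt2, a ligand that signals through beta-catenin, rose by 5.65 ± 0.65 in small intestinal GFP-positive cells (edgeR adjusted p = 3.56e-04), as Dkk2 did. Of 15 receptors and co-receptors tested, 2 rose and 2 fell in colon GFP-positive cells and 3 rose in small intestinal GFP-positive cells, among them Lrp6, the co-receptor that DKK2 binds, by 1.09 ± 0.20 (edgeR adjusted p = 0.00352). Of 11 feedback and target genes tested, 2 rose and 3 fell in the colon and 1 rose and 2 fell in the small intestine. Of 7 R-spondin and R-spondin receptor genes, Rspo3 included, 2 rose in the colon, and 3 rose and 1 fell in the small intestine.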

How the data were processed

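RNA of 12 libraries (3 in each of 4 groups, grouped by tissue and GFP label) was sequenced after column extraction and ribosomal depletion, per the labels' protocols. The submitters' processing notes name Salmon 1.1.0, R 3.6.1 and mm10, while the annotation and any filter are not given in the sources used here. The expected counts that the authors deposited were whole in 100% of entries and were treated as Salmon estimates rounded before deposit. The authors also deposited log2 values, log2(TPM + 1), from which TPM was recovered.

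Of 32052 identifiers, 32001 had a symbol and position in GENCODE M21 (GRCm38). Counts were fitted with edgeR 4.0.16 in R 4.3.3 (quasi-likelihood, robust, TMM factors, filterByExpr at a minimum count of 10), with a mean per group over all 12 libraries and 5 contrasts. Adjusted p is Benjamini-Hochberg over 16757 genes, with a threshold of 0.05. CPM use TMM-scaled library sizes, and each SE is the fitted change divided by the root of its F statistic. For an antagonist gene with no count in a group, a bound was computed with 3 counts in that group as the floor. Floors cover the counting error of the group without a count only, and each SE includes the spread between libraries. Multi-mapping between related genes could not be checked from these tables.

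The 7 genes, the marker lists and the pathway lists were chosen with earlier results of these data known. Named pathway genes are up to 3 called genes per list and comparison with the smallest adjusted p, and the nearest patterns are the 3 nearest genes. Alternatives were DESeq2 1.42.0 and its size factors, limma 3.58.1 (voom, and log2(TPM + 1) or log2(TPM + 0.1) at a mean of at least 1), no filter, a minimum count of 30, only the libraries compared, the replicate number as a block, and each library left out. The edgeR fit was tested on simulated counts with the same dispersion for every gene and group, and changes only in genes of higher count. That test does not cover counts as low as those of Sfrp2, Sfrp4 and Wif1, nor groups of unequal spread. Whether replicate numbers pair the samples was checked by the correlation of same-numbered libraries' deviations from their group means. In the small intestine it was 0.32, 0.18 and 0.17 between the sorts, over 0.1 in each pair. The labels also give both small intestinal sorts of replicate 3 a shared identifier and number the other sorts alike. They do not state what either means.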

Additional observations from a re-analysis of the deposited data

Results flagged for a closer look

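In the main edgeR fit, none of the 7 antagonist genes had GFP effects that differed between colon and small intestine past the threshold. That is near the 2.06% of all genes, so it does not set the members apart from other genes. DESeq2 called Sfrp1. Without small intestinal GFP-negative replicate 2, Sfrp1 and Dkk3 passed (edgeR adjusted p = 0.00524 and 0.00604). For 5 of 51 other genes of the Wnt pathway tested the effects did differ, against 2.06% of all genes, by a test of the difference itself (colon effect minus small intestinal effect, edgeR interaction term). The ligand Wnt2 differed by -6.80 (adjusted p = 0.00311), averaging 2.29 CPM in colon GFP-positive and 5.08 CPM in colon GFP-negative cells, and 41.9 CPM in small intestinal GFP-positive and 0.808 CPM in small intestinal GFP-negative cells. Wnt5a differed by -3.05 (adjusted p = 0.00247), with 18.0 CPM in colon GFP-positive and 133 CPM in colon GFP-negative cells, and 38.4 CPM in small intestinal GFP-positive and 34.1 CPM in small intestinal GFP-negative cells. Wnt5b differed by -3.02 (adjusted p = 0.0474). The receptor gene Fzd7 differed by -2.07 (adjusted p = 0.0321). Fzd6 differed by 4.10 (adjusted p = 0.0481), with 38.2 CPM in colon GFP-positive and 3.25 CPM in colon GFP-negative cells, and 9.03 CPM in small intestinal GFP-positive and 13.1 CPM in small intestinal GFP-negative cells. The calls of Wnt2 and Wnt5a held in all 12 fits without a library, though Wnt2 did not pass in limma-voom (adjusted p = 0.175) nor Wnt5a on either TPM scale (adjusted p = 0.199 and 0.333). The other calls were lost more often. Fzd7 passed in 5 of the 12 fits without a library (without any 1 of colon GFP-negative replicate 1, small intestinal GFP-positive replicates 1 and 2 and GFP-negative replicates 2 and 3). Wnt5b passed in 4 (without any 1 of colon GFP-positive replicate 1, small intestinal GFP-positive replicate 2 and GFP-negative replicates 2 and 3), and Fzd6 in 3 (without any 1 of small intestinal GFP-positive replicate 2 and GFP-negative replicates 2 and 3). With the replicate block these genes had adjusted p of 0.0947 for Fzd7, 0.109 for Wnt5b and 0.0752 for Fzd6, and none of the 3 passed.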

How the results depend on the processing

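Every member kept its sign under the alternatives except as follows, none of them past the threshold, and the cause was not tested. Fits without a library spread the small intestinal GFP difference of Dkk3 from -0.54 to 0.45 (without GFP-negative replicate 2) and of Sfrp4 from -2.34 to 0.44 (without GFP-negative replicate 3). They spread the colon GFP difference of Dkk2 from -0.45 to 0.38 (0.15 without GFP-positive replicate 1) and of Sfrp4 down to -0.090. For the difference of GFP effects the ranges were -1.39 to 1.57 for Sfrp2 (and -2.27 in voom), -0.17 to 2.61 for Sfrp4 and -0.53 to 0.46 for Frzb (-0.24, -0.11 and -0.36 in 3 other fits). For colon over small intestinal GFP-positive cells the range was -4.70 to 2.24 for Wif1 (0.20 and 0.12 in 2 other fits).

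Of the 7 genes, DESeq2 called 4 in each GFP comparison and each tissue comparison and 1 in the difference of effects. In the small intestinal GFP comparison 2 were called with no filter or a minimum count of 30 and 0 with only the libraries compared or on either TPM scale. In the colon GFP comparison 5 were called with only the libraries compared and 1 on each TPM scale. Between GFP-positive sorts 1 was called on each TPM scale. Between GFP-negative sorts 0 were called with no filter and 1 by voom, with only the libraries compared and on each TPM scale. The TPM fits tested 8665 genes and 2 of the 7 (Sfrp1 and Dkk3), which lowers the count by construction, and moved the median of all genes to 0.41 and 0.56 in the tissue comparisons at a pseudocount of 0.1. With a library left out, 0 to 3 members were called in the small intestinal GFP comparison, 0 to 2 in the colon, 0 to 2 in the difference, 2 in every fit between GFP-positive sorts and 0 to 3 between GFP-negative sorts.

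Over all genes, 1821 were called in the small intestinal GFP comparison (850 with only the libraries compared, 393 on log2(TPM + 1), 446 on log2(TPM + 0.1), 1239 to 2644 with a library left out), 1456 in the colon (3016, 614, 530, 816 to 1140), 345 in the difference (1096 in DESeq2, 174 in voom, 58, 30, 69 to 1044), 765 between GFP-positive sorts (1377 in DESeq2, 354 in voom, 323, 309, 416 to 613) and 706 between GFP-negative sorts (1635 in DESeq2, 406 with only the libraries compared, 1132, 1066, 187 to 1229).

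With the replicate block, 1931 genes were called in the small intestine, and of the members Frzb passed and Dkk2 did not. In the colon the correlations were 0.01, 0.05 and 0.09, while the labels give both sorts of replicates 2 and 3 a shared identifier whose meaning they do not state. The identifier of colon replicate 3 is also that of small intestinal replicate 3. Between the tissues, the replicate 3 libraries correlated at 0.22 in GFP-negative and 0.05 in GFP-positive cells. The block called 1535 genes and 4 members in the colon, adding Frzb, and changed no member call between tissues. Low counts of Sfrp2, Sfrp4 and Wif1 limit their precision.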
